A study of Sorghum bicolor with 16 samples.

Results

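The genes described here are 4 genes of sorghum that carry large-effect background mutations in the waxy mutant line, out of 34129 genes in the deposited expression table. They are *Sobic.001G175000*, annotated as a jmjC domain containing protein, and *Sobic.001G501800*, a C2H2 zinc finger protein, both on chromosome 1 by their IDs, *Sobic.008G013000*, an expressed protein with no described function, on chromosome 8, and *Sobic.003G017500*, a tetratricopeptide-repeat (TPR) thioredoxin-like protein, on chromosome 3. The members were taken from the list in the study's text, where they were picked on these same libraries as mutated genes with a lower transcript level in the mutant at every age. A lower level in the mutant, at whichever age, is therefore how they were found and is not independent evidence about them. In the values described here that pattern held at every age for 3 of the genes, whereas the jmjC domain gene lay above WT at 6 and 11 DPA (days post anthesis). No change with seed age within a genotype is named in the choice.

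Endosperm was dissected from developing seeds, and its RNA sequenced, in the EMS (ethyl methane sulfonate) mutant line wxe and in BTx623, the line it was made from and here called WT. Both lines were grown in adjacent field rows and sampled at 4 seed ages, 6, 11, 16 and 21 DPA, with 2 replicates in each of the 8 groups, which makes 16 libraries, and each replicate pooled panicles that flowered on the same day. The mutant line is a single line that carries a stop-gained allele of *SbGBSSI*, the granule-bound starch synthase needed for amylose, together with its other EMS mutations, so that any difference between wxe and WT is a difference of the line. Values are FPKM, the fragments assigned to a gene scaled by transcript length and by library size, and whether a further normalization between libraries was applied is not given in the sources used here. In bulk endosperm a smaller number of expressing cells and less RNA per cell cannot be told apart.

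EMS alkylates guanine and leaves mostly G:C to A:T changes scattered over the genome, so a line selected for a lesion in a single gene keeps many others. A large-effect change creates a stop codon, removes a start codon or alters a splice site. Plant cells degrade many transcripts with a premature stop through nonsense-mediated decay, but a mutated gene can also keep a normal transcript level, and which lesion each of the 4 genes carries is not given in the sources used here. jmjC domain proteins include histone demethylases, which remove methyl groups from lysines of histone tails. C2H2 zinc finger proteins are mostly DNA-binding transcription factors. In *Arabidopsis*, TPR thioredoxin-like (TTL) proteins act as scaffolds in brassinosteroid hormone signalling and in tolerance of osmotic stress.

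Of the 7 genes used to check the tissue label, 6 were above 1 FPKM in all 16 libraries. Embryo and pericarp markers were not run, so this cannot show that other tissues were absent. *SbGBSSI* ran from 329 to 8807 FPKM. Globulin-1 (*Sobic.001G144900*) ran from 0.236 to 112 FPKM and passed 1 FPKM in 12 libraries. The summed FPKM of a library ran from 493357 to 550572 at 6 DPA and from 779091 to 1001504 at the later ages. The steps between low values showed that a given FPKM rested on more fragments at 6 DPA, 1.82 to 2.02 times the median library, against 0.793 to 1.25 times at the later ages, so low values are less precise after 6 DPA. The 10 most abundant genes took 5.91% to 6.57% of the summed FPKM at 6 DPA and 30.5% to 44.2% later. All 4 genes exceeded the lower limit for testing, a group mean of 1 FPKM, in every comparison.

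Differences were tested with limma on log2(FPKM + 1), two-sided, in a model of all 8 groups, with Benjamini-Hochberg adjusted p-values taken over all genes of a comparison. To be called, a difference needed both an adjusted p under 0.05 and a log2 fold change of 0.58 or more in size. Because 1 was added to every FPKM before taking logs, the change of genes near 1 FPKM is understated. Standard errors are given as SE. With 2 libraries in each group, the smallest p of an exact permutation test on a single gene is 0.333, and each call therefore rests on the spread shared across genes and groups.

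At 6 DPA the calls in wxe were 2 lower and 1 higher among the 4 genes, where 5.15% of the 16967 genes tested were called lower and 14.4% higher. At 11 DPA, 3 were called lower and 1 higher (12.1% and 5.78% of 15808 genes). At 16 DPA, 3 were called lower and 0 higher (0.314% lower and 0.674% higher of 14990 genes), and all 4 passed an unadjusted p of 0.05, as did 15.7% of all genes. At 21 DPA all 4 were called lower (2.93% lower and 3.58% higher of 14966 genes). The zinc finger, expressed protein and TPR thioredoxin-like genes thus kept the same direction at every age, and the jmjC domain gene did not. Since lower transcript levels in wxe at every age led to the list, nothing is read from these counts about the 4 genes as a group.

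**Figure D1:**
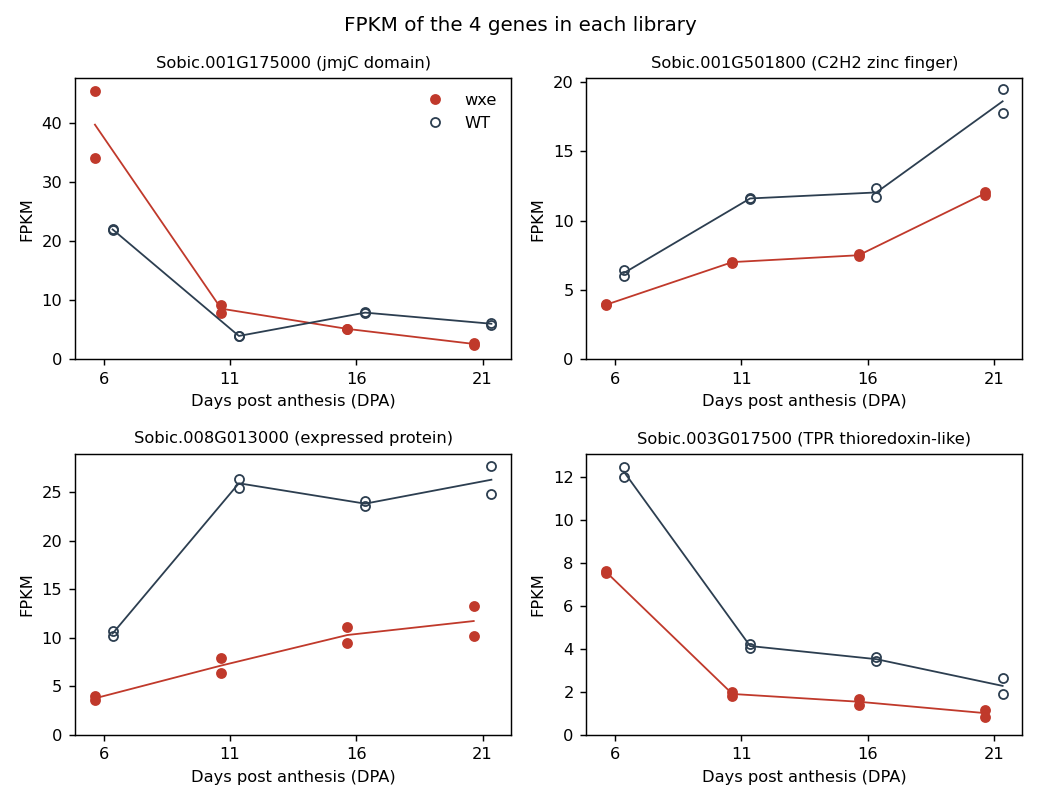
FPKM (y axis, from 0) of the 4 genes against seed age in days post anthesis (x axis), with filled points for the 2 wxe libraries and open points for the 2 WT libraries of an age, moved slightly apart, and lines through the means. The zinc finger, expressed protein and TPR thioredoxin-like genes lay below WT at every age in wxe, and the jmjC domain gene lay above WT at 6 and 11 DPA and below it at 16 and 21 DPA.

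*Sobic.008G013000*, the expressed protein, had the largest differences from WT among the 4 genes at 6 and 11 DPA, while at 16 and 21 DPA its share of WT was close to that of the TPR thioredoxin-like gene. At 6 DPA it had 3.55 and 3.97 FPKM in wxe, against 10.2 and 10.7 FPKM in WT. At 11 DPA it had 7.89 and 6.38 FPKM in wxe, against 25.4 and 26.4 FPKM in WT. The highest wxe library at 11 DPA thus stayed below both WT libraries at 6 DPA. At 16 DPA the values were 9.50 and 11.1 FPKM in wxe and 24.1 and 23.6 FPKM in WT. The oldest wxe libraries, of 21 DPA, held 10.2 and 13.3 FPKM, against 27.7 and 24.9 FPKM in WT. The genotypes did not overlap at any age. Of the 13487 genes tested at all 4 ages, 154 (1.14%) likewise had both wxe libraries below both WT libraries at every age. Since a lower level in wxe led to the list, nothing is read from this separation. The wxe mean at 6, 11, 16 and 21 DPA was 36.0%, 27.5%, 43.2% and 44.6% of the WT mean. The corresponding log2 fold changes were -1.27, -1.73, -1.14 and -1.11 (SE 0.13 each). The largest adjusted p was 0.00199, at 16 DPA, and the call held at all 4 ages under every alternative run, library by library included, with log2 fold changes between -1.87 and -0.93.

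The level of *Sobic.008G013000* went up with age in both genotypes. Between 6 and 11 DPA it rose by a log2 fold change of 0.77 in wxe (SE 0.13, adjusted p = 2.47e-04 from limma) and of 1.23 in WT (SE 0.13, adjusted p = 6.27e-06 from limma). In WT the later steps were -0.12 and 0.13, neither called. In wxe the step between 11 and 16 DPA was 0.47 (adjusted p = 0.00963 from limma), under the fold threshold, and without replicate 1 of wxe at 11 DPA it was 0.61 and called. At 21 DPA the mean was 3.12 times that of 6 DPA in wxe and 2.52 times in WT.

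*Sobic.003G017500*, the TPR thioredoxin-like gene, declined with age, to means of 1.01 FPKM in wxe and 2.28 FPKM in WT at 21 DPA. It had 7.52 and 7.63 FPKM in wxe at 6 DPA, against 12.0 and 12.5 FPKM in WT. At 11 DPA it had 1.81 and 1.99 FPKM in wxe and 4.24 and 4.02 FPKM in WT. From there the wxe libraries were all under 2 FPKM. They held 1.67 and 1.41 FPKM at 16 DPA, against 3.43 and 3.61 FPKM in WT, and 1.17 and 0.849 FPKM at 21 DPA, against 1.92 and 2.63 FPKM in WT. The genotypes did not overlap at any age, with wxe below WT, as for 1.14% of the 13487 genes tested at all 4 ages. The wxe mean was 61.8%, 46.0%, 43.7% and 44.3% of the WT mean at 6, 11, 16 and 21 DPA. On the log2(FPKM + 1) scale the fold changes were -0.63, -0.82, -0.83 and -0.70 (SE 0.13 each), while the log2 ratios of mean FPKM were -0.69, -1.12, -1.19 and -1.17. All 4 were called (largest adjusted p = 0.0110, at 16 DPA, from limma). At 16 DPA the call was lost without replicate 2 of wxe (adjusted p = 0.113 from limma), replicate 1 of WT (0.0505) or replicate 2 of WT (0.0926), and with that age fitted alone (0.0601). At 21 DPA it was lost without replicate 2 of wxe (log2 fold change -0.59, adjusted p = 0.0548 from limma) or replicate 2 of WT (-0.54), and with that age fitted alone (0.108).

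The fall of *Sobic.003G017500* with age was concentrated between 6 and 11 DPA, with log2 fold changes of -1.56 in wxe (SE 0.13, adjusted p = 6.44e-07 from limma) and -1.37 in WT (SE 0.13, adjusted p = 2.25e-06 from limma). The later steps were not called in either genotype. The closest was the step between 16 and 21 DPA in WT, -0.47 (adjusted p = 0.0129 from limma), which was called with a pseudocount of 0.1 (-0.62) and without replicate 2 of WT at 21 DPA (-0.63). The mean of 6 DPA was 7.51 times that of 21 DPA in wxe and 5.38 times in WT.

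*Sobic.001G501800*, the C2H2 zinc finger gene, was lower in wxe by nearly the same proportion throughout. It had 3.89 and 3.96 FPKM in wxe at 6 DPA, against 5.99 and 6.44 FPKM in WT, and 7.03 and 6.98 FPKM in wxe at 11 DPA, against 11.6 and 11.6 FPKM in WT. At 16 DPA it had 7.45 and 7.56 FPKM in wxe and 12.3 and 11.7 FPKM in WT, and at 21 DPA 11.8 and 12.1 FPKM in wxe and 17.7 and 19.5 FPKM in WT. Here too the genotypes did not overlap at any age, with wxe below WT, as for 1.14% of the 13487 genes tested at all 4 ages. The wxe mean was 63.2%, 60.4%, 62.3% and 64.3% of the WT mean at 6, 11, 16 and 21 DPA. The log2 fold changes were -0.55, -0.65, -0.62 and -0.60 (SE 0.09 each), so the fold threshold lies close to all of them. The value of 6 DPA (adjusted p = 5.95e-04 from limma) was under that threshold and was not called, and it was called without replicate 1 of WT (-0.59), with a pseudocount of 0.1 (-0.65), under quantile normalization (-0.71) and with the threshold on the ratio of mean FPKM (-0.66). The call of 16 DPA was lost without replicate 1 of wxe (adjusted p = 0.0558 from limma), replicate 2 of wxe (0.0704) or replicate 1 of WT (0.0516) and with that age fitted alone (0.0518), and that of 21 DPA was lost without replicate 2 of WT (-0.53) and under quantile normalization (-0.57).

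The zinc finger gene, unlike the TPR thioredoxin-like gene, was highest at 21 DPA. *Sobic.001G501800* rose between 6 and 11 DPA by 0.70 in wxe (SE 0.09, adjusted p = 1.98e-05 from limma) and by 0.81 in WT (SE 0.09, adjusted p = 7.45e-06 from limma), was not called between 11 and 16 DPA (0.09 in wxe and 0.05 in WT), and rose again between 16 and 21 DPA by 0.61 in wxe and 0.59 in WT (SE 0.09 each). The step between 16 and 21 DPA was under the fold threshold with quantile normalization, at 0.57 in wxe and 0.56 in WT, and in WT also without replicate 2 at 16 DPA (0.55) or at 21 DPA (0.52). The mean of 21 DPA was 3.05 times that of 6 DPA in wxe and 3.0 times in WT.

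*Sobic.001G175000*, the jmjC domain gene, changed direction between the ages. At 6 DPA it had 45.4 and 34.1 FPKM in wxe, against 21.9 and 22.1 FPKM in WT, and at 11 DPA 9.23 and 7.86 FPKM in wxe, against 3.98 and 3.86 FPKM in WT. At 16 DPA it had 5.15 and 5.08 FPKM in wxe, against 8.01 and 7.74 FPKM in WT, and at 21 DPA 2.40 and 2.74 FPKM in wxe, against 6.17 and 5.80 FPKM in WT. Both wxe libraries lay above both WT libraries at 6 and 11 DPA and below both at 16 and 21 DPA. How many of all genes separated in this way was not counted, so the separation is given as a description only. The wxe mean was 181% and 218% of the WT mean at 6 and 11 DPA, and 64.9% and 42.9% at 16 and 21 DPA. In limma the log2 fold changes of the young ages were 0.81 and 0.95 (SE 0.13 each, adjusted p = 5.52e-04 for 6 DPA and 2.35e-04 for 11 DPA). Those of the older ages were -0.54, not called (16 DPA, SE 0.13, adjusted p = 0.0628), and -0.97 (21 DPA, SE 0.13, adjusted p = 0.00115). None of the 13 alternatives run at an age changed these 4 calls, and the log2 fold change stayed between 0.61 and 1.01 at 6 DPA, where the wxe libraries lay furthest apart.

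In wxe, *Sobic.001G175000* fell at every step, by -2.08 between 6 and 11 DPA, -0.64 between 11 and 16 DPA and -0.78 between 16 and 21 DPA on the log2 scale (SE 0.13 each, adjusted p = 5.31e-08, 0.00126 and 7.02e-04 from limma). Without replicate 1 of wxe at 11 DPA the middle step was -0.54 and not called. In WT it fell by -2.22 between 6 and 11 DPA (adjusted p = 3.40e-08 from limma) and then rose by 0.85 between 11 and 16 DPA (SE 0.13, adjusted p = 1.51e-04 from limma), so that 11 DPA was the lowest age in WT and 21 DPA the lowest in wxe. The WT step between 16 and 21 DPA was -0.35 and not called. The mean of 6 DPA was 15.5 times that of 21 DPA in wxe and 3.67 times in WT.

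With seed age itself, all 4 genes were called between 6 and 11 DPA in both genotypes, 2 higher and 2 lower at the later age. Of all genes tested, 47.4% were called in wxe (19.1% higher and 28.3% lower) and 40.6% in WT (19.6% higher and 21% lower). Between 6 and 21 DPA again all 4 were called in both, the same 2 higher and the same 2 lower, beside 62.1% of all genes in wxe (27.5% higher and 34.6% lower) and 58.9% in WT (27.1% higher and 31.9% lower). Between 11 and 16 DPA 1 gene was called lower in wxe (17.9% of all genes lower and 14.2% higher, 32.1% in all) and 1 higher in WT (14.1% higher and 21.5% lower, 35.6% in all), in both cases the jmjC domain gene. Between 16 and 21 DPA 1 was called higher and 1 lower in wxe (10.4% and 8.7% of all genes, 19.1% in all) and 1 higher in WT (11.3% higher and 10.1% lower, 21.3% in all). The zinc finger and expressed protein genes were thus higher in older endosperm, and the jmjC domain and TPR thioredoxin-like genes were higher in young endosperm, in wxe and WT alike.

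**Figure D2:**
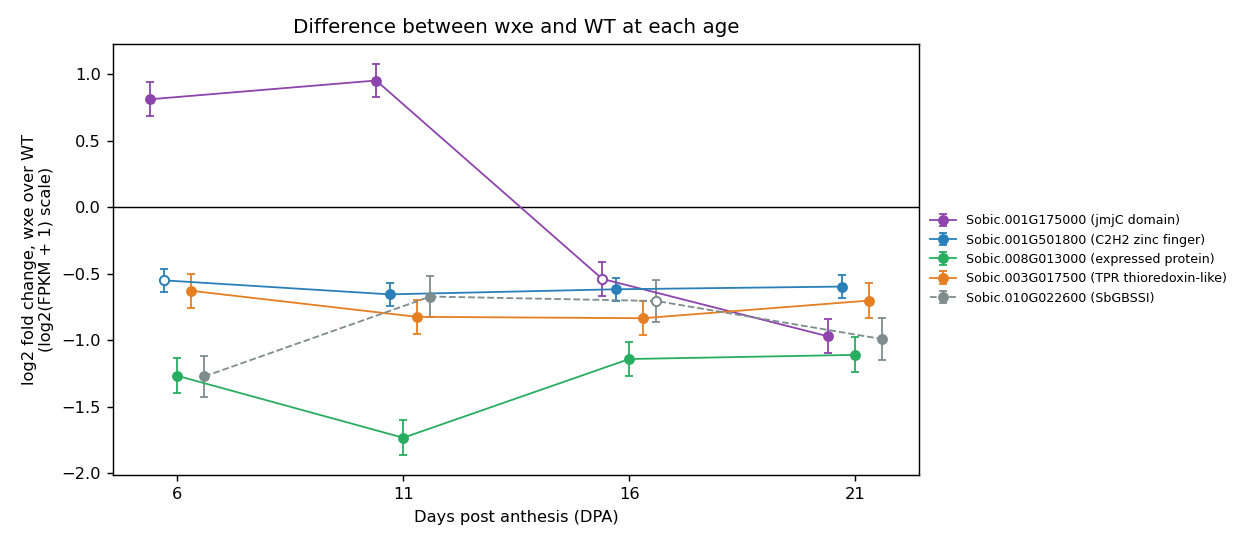
Log2 fold change of wxe over WT on the log2(FPKM + 1) scale (y axis) at each age in days post anthesis (x axis) for the 4 genes and, dashed, for *SbGBSSI*, with bars of 1 standard error from limma; filled points were called and open points were not. The jmjC domain gene lies at 0.81 and 0.95 at 6 and 11 DPA and at -0.54 and -0.97 at 16 and 21 DPA, while the other genes stay below 0.

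Whether the difference between wxe and WT itself depended on age was tested with interaction contrasts, called at an adjusted p below 0.05. For *Sobic.001G175000* the log2 fold change of wxe over WT was lower at 21 DPA than at 6 DPA by 1.78, that is a difference of -1.78 (SE 0.18, adjusted p = 8.02e-05 from limma over 18020 genes, of which 15.1% were called lower and 10.4% higher, 25.4% in all). The turn fell between 11 and 16 DPA, with a difference of -1.49 (SE 0.18, adjusted p = 6.94e-04 from limma), the 34th lowest value of 16399 genes, of which 6.15% were called lower and 10.3% higher, 16.4% in all. Between 6 and 11 DPA, where 41.6% of all genes were called (18% higher and 23.6% lower), 0 of the 4 genes were called by limma and 1 passed an unadjusted p of 0.05. That gene was *Sobic.008G013000*, at -0.47 (adjusted p = 0.0616 from limma), and without replicate 1 of wxe at 11 DPA it was called (-0.60, adjusted p = 0.0348). Between 16 and 21 DPA 0 were called by limma (0.128% of all genes, 0.0383% higher and 0.0894% lower) and 1 passed an unadjusted p of 0.05, the jmjC domain gene at -0.43. The share of all genes passing an unadjusted p is not given for these interactions, so nothing is read from the unadjusted counts.

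Between 11 and 16 DPA the difference for *Sobic.008G013000* was 0.59 (SE 0.19, adjusted p = 0.0480 from limma), a smaller gap to WT at the later age. This call was kept without replicate 1 of wxe at 11 DPA (0.73) and lost without each of the other 7 libraries of these ages, with adjusted p between 0.0576 and 0.171, and it was also lost with a pseudocount of 0.1, no filter, quantile normalization or no variance trend (adjusted p between 0.0522 and 0.0739 from limma). For *Sobic.001G501800* and *Sobic.003G017500* the difference between 6 and 21 DPA was -0.05 (SE 0.12) and -0.07 (SE 0.18), neither called. None of their 4 interaction contrasts was called. The small value of *Sobic.003G017500* depended on the 1 added to its low FPKM. Its log2 ratio of mean FPKM was -0.69 at 6 DPA and -1.17 at 21 DPA. With a pseudocount of 0.1 its difference was -0.41 (SE 0.26), not called. A constant gap to WT was thus not shown for this gene.

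Averaged over the 4 ages, where opposite directions cancel, the log2 fold change of wxe over WT was -1.31 for *Sobic.008G013000* (SE 0.07), -0.75 for *Sobic.003G017500* (SE 0.06), -0.60 for *Sobic.001G501800* (SE 0.04) and 0.06 for *Sobic.001G175000* (SE 0.06). The first 3 were called lower, as were 0.785% of the 18349 genes tested, 0.845% being called higher. These 3 calls held under every alternative that was run, and since the genes were chosen for a lower level in wxe they restate that choice. *SbGBSSI* (*Sobic.010G022600*), whose stop-gained allele gave the line its waxy grain, had an average of -0.91 (SE 0.08). Its wxe mean was 41.3%, 62.8%, 61.4% and 50.6% of the WT mean at 6, 11, 16 and 21 DPA. By these means the expressed protein gene was at a lower share of WT than *SbGBSSI* at each age, and the TPR thioredoxin-like gene from 11 DPA on. The zinc finger gene was at 60.4% to 64.3% throughout, and these gaps between genes were not tested. At 6 DPA the log2 fold changes of the expressed protein gene and *SbGBSSI* were both -1.27. The 1 added to FPKM made the former smaller in size, and the log2 ratios of mean FPKM were -1.47 and -1.28. The averages set beside *SbGBSSI* share this limit. At 21 DPA the ratios of single libraries overlapped, at 36.8% to 53.3% for the expressed protein gene, 32.2% to 61.0% for the TPR thioredoxin-like gene and 44.5% to 56.8% for *SbGBSSI*. At 16 DPA *SbGBSSI* itself was not called (adjusted p = 0.0526 from limma).

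**Figure D3:**
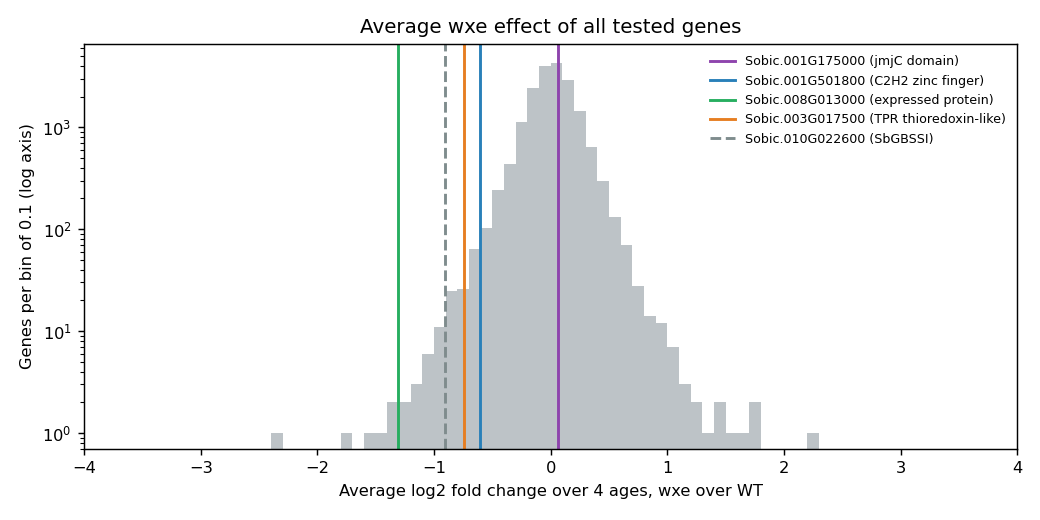
Number of genes per bin of 0.1 (y axis, log scale) against the log2 fold change of wxe over WT averaged over the 4 ages (x axis) for the 18349 genes tested, with lines at the 4 genes and, dashed, at *SbGBSSI*. *Sobic.008G013000* lies at -1.31 in the lower tail, ahead of *SbGBSSI* at -0.91, and *Sobic.001G175000* lies at 0.06 in the bulk of the genes.

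Ratios between genes within a library do not depend on how the libraries were scaled. The FPKM of *Sobic.008G013000* over that of *Sobic.001G501800* averaged 0.956 in wxe and 1.68 in WT at 6 DPA, 1.02 in wxe and 2.24 in WT at 11 DPA, 1.37 in wxe and 1.98 in WT at 16 DPA, and 0.979 in wxe and 1.42 in WT at 21 DPA. The wxe libraries lay below the WT libraries in this ratio at every age. The expressed protein gene was thus at a smaller share of WT than the zinc finger gene, a gap that was not tested. Both genes were chosen for a lower level in wxe. The FPKM of *Sobic.001G175000* over that of *Sobic.003G017500*, the pair highest in young endosperm, averaged 5.25 in wxe and 1.80 in WT at 6 DPA, 4.53 in wxe and 0.949 in WT at 11 DPA, and 3.35 in wxe and 2.24 in WT at 16 DPA. At 21 DPA the ratio was 2.05 to 3.23 in wxe and 2.20 to 3.22 in WT, and the genotypes overlapped.

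The 4 genes were next set beside their chromosomal neighbours, taken as the 10 genes on each side in the order of their IDs, which were not chosen for their level. Of 80 neighbours, 43 reached a mean above 1 FPKM in a group and were tested. For the average over the 4 ages, 0 of these 43 were called by limma, where 1.63% of all genes were, and 14 passed an unadjusted p of 0.05, as did 33.0% of all genes. The median log2 fold change of the neighbours was -0.0047, beside 0.0153 over all genes. The 14 tested neighbours of *Sobic.001G501800* ran from -0.41 to 0.51, the 8 of *Sobic.008G013000* from -0.31 to 0.14 and the 10 of *Sobic.003G017500* from -0.36 to 0.31. That these genes lay lower follows in part from how they were chosen, and nothing is read from it. The 11 tested neighbours of *Sobic.001G175000* ran from -0.24 to 0.46, on both sides of its own 0.06.

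At single ages some neighbours were called. At 6 DPA these were 5 of 38 tested neighbours (13.2%, beside 19.6% of all genes). Of the 9 tested neighbours of *Sobic.003G017500*, 3 were called higher in wxe, beside 14.4% of all genes. They were *Sobic.003G017200* at 1.83, *Sobic.003G017800* at 1.11 and *Sobic.003G018000* at 1.11 on the log2 scale, against -0.63 for the TPR thioredoxin-like gene among them. At 11, 16 and 21 DPA 0 neighbours of this gene were called higher. At 11 DPA 11 of 38 neighbours were called (28.9%, beside 17.9% of all genes), 4 higher and 7 lower (5.78% and 12.1% of all genes). At 16 DPA 1 of 36 was called (2.78%, beside 0.987% of all genes), and at 21 DPA 1 of 32 (3.12%, beside 6.51%), in both cases *Sobic.008G013600*, lower in wxe at -0.83 and -0.67.

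**Figure D4:**
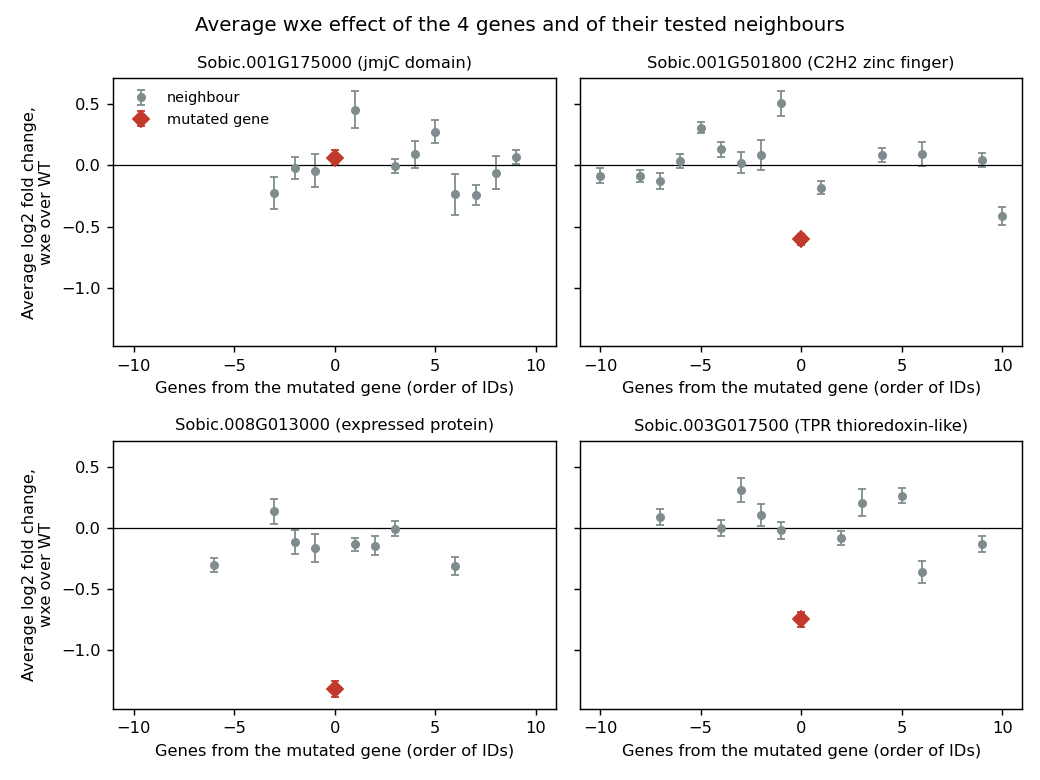
Log2 fold change of wxe over WT averaged over the 4 ages (y axis) for each of the 4 genes (diamonds) and its tested neighbours (circles), against the number of genes between them in the order of IDs (x axis), with bars of 1 standard error from limma. Neighbours lie between -0.41 and 0.51, and the 4 genes, 3 of which were called lower, were chosen for a lower level in wxe.

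The genes whose level followed each of the 4 most closely over the 16 libraries were found by Pearson's r of log2(FPKM + 1), given as a description. The 16 libraries share ages and genotypes, so a high r reflects the same course over them. *Sobic.008G013000* was followed most closely by *Sobic.004G265066* (r = 0.92) and *Sobic.010G262300* (r = 0.91). These values were the lowest of the 4 pairs. *Sobic.001G175000* was followed by *Sobic.009G207400* (r = 0.97) and *Sobic.003G181700* (r = 0.97). *Sobic.001G501800* was followed by *Sobic.001G511900* and *Sobic.002G123900* (r = 0.96 each), and *Sobic.003G017500* by *Sobic.002G151400* (r = 0.95) and *Sobic.009G001900* (r = 0.93). Some of these genes had group means under 1 FPKM, where values are less precise. Group means ran from 0.277 to 1.10 FPKM for *Sobic.004G265066*, 0.271 to 1.98 FPKM for *Sobic.009G207400* and 0.152 to 4.01 FPKM for *Sobic.002G151400*. By Spearman's rho of FPKM, 2 of these 8 genes kept their place in a pair, *Sobic.004G265066* and *Sobic.009G001900*. Among the 4 genes, r was computed within each genotype, over 8 libraries, because the genotypes differ in level. The zinc finger and expressed protein genes had r = 0.92 in wxe and 0.89 in WT, and the jmjC domain and TPR thioredoxin-like genes r = 0.98 in wxe and 0.83 in WT. Between these pairs r ran from -0.97 to -0.94 in wxe and from -0.96 to -0.78 in WT, the opposite course with age. Over all 16 libraries the last range was -0.76 to -0.22.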

How the data were processed

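Per the study's methods, STAR mapped the reads to version 3 of the sorghum genome, and the authors deposited FPKM per gene and library from Cufflinks (the submitters' notes also name FastQC and Trimmomatic). Tool versions, annotation release and treatment of reads with several alignments are not given in the sources used here, so genes sharing sequence with copies are uncertain. The table has no read counts, and counting error is unknown. Median-ratio size factors of the deposited FPKM were 0.997 to 1.03, although summed FPKM and the share of the most abundant genes differed greatly by age, so the values may already have been normalized between libraries; the sources used here do not say. How many fragments 1 FPKM stood for, relative to the median library, was read from the most frequent ratio of values under 0.15 FPKM between libraries.

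R 4.3.3 and limma 3.58.1 (variance trend, 8 residual degrees of freedom) were used on 18349 genes with a group mean above 1 FPKM, and each contrast tested those above 1 FPKM in its own groups. The expression filter and the threshold values are those of the study's methods, but the fold threshold was set on the log2(FPKM + 1) difference, which is smaller than the log2 ratio of FPKM that the study used; the ratio was an alternative. Cuffdiff needs the reads. The code was tested on simulated data. Alternatives were a pseudocount of 0.1, no filter, a filter at 5 FPKM, fitting the compared groups alone, a replicate block, median-ratio scaling, quantile normalization, no trend, the threshold on ratios of means, each library left out, and 5 or 20 neighbours. The 4 genes, lists and tests were chosen with earlier results of these data known. Genes named are the 4 members, *SbGBSSI*, the 2 genes most like each member, and neighbours called for the average effect (0 were); neighbours called at single ages were named after their values were seen. Lists by product name (related families, decay factors, embryo and pericarp markers) were not run, because 0 IDs matched the RefSeq table at hand. Sequences and coordinates were not used here.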

Additional observations from a re-analysis of the deposited data

Results flagged for a closer look

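The difference between wxe and WT depended on age, by limma's interaction test, for 2 of the 4 genes (between 6 and 21 DPA for 1 gene, where 25.4% of all genes were called, and between 11 and 16 DPA for 2, where 16.4% were). For *Sobic.001G175000*, the jmjC domain gene, the log2 fold change of wxe over WT at 21 DPA minus that at 6 DPA was -1.78, and at 16 DPA minus 11 DPA it was -1.49. Among the 13487 genes tested at all 4 ages, 737 (5.46%) were called higher in wxe at an age and lower at another, and 2 (0.0148%) were called higher at 6 and 11 DPA and lower at 21 DPA. The latter pattern is that of the calls of *Sobic.001G175000* itself. Its place among the 2 genes was thus fixed in advance, and the share does not measure how rare its course is. The other of the 2 genes was *Sobic.001G205000*, at 0.85, 1.27, -0.57 and -1.08 at 6, 11, 16 and 21 DPA, named after its values were seen. For *Sobic.008G013000*, the expressed protein gene, the change between 11 and 16 DPA was 0.59, and that call was lost in 7 of the 8 fits that each left out 1 of the libraries compared.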

How the results depend on the processing

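Over 963 alternative values of the 4 genes, 903 kept direction and call, 29 lost the call, 9 gained it and 22 changed sign, and the cause was not tested. The count called among the 4 moved, among other cases, as follows. At 6 DPA it was 4, from 3, with a pseudocount of 0.1, quantile normalization or the threshold on the ratio of means. At 16 DPA it was 1, from 3, with that age fitted alone. At 21 DPA it was 3, from 4, with that age fitted alone or quantile normalization. Between 16 and 21 DPA in WT it was 2, from 1, with a pseudocount of 0.1 and with the threshold on the ratio of means, and 0 under quantile normalization, which gave 1, from 2, in wxe. For the interaction between 11 and 16 DPA it was 1, from 2, with a pseudocount of 0.1, no filter, quantile normalization or no trend. With each library left out it ran from 3 to 4 at 6 DPA, 1 to 2 at 16 DPA, 2 to 4 at 21 DPA, 0 to 1 between 16 and 21 DPA in WT, 1 to 2 for the interaction between 11 and 16 DPA and 0 to 1 for that between 6 and 11 DPA. A filter at 5 FPKM left *Sobic.003G017500* untested at 11, 16 and 21 DPA, where 3, 2 and 3 genes were then called.

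No value that changed sign was called. *Sobic.001G501800* was 0.0156 for the interaction between 6 and 21 DPA with a pseudocount of 0.1 and 0.13 under quantile normalization, 0.088 between 6 and 11 DPA under quantile normalization, and -0.0060 between 16 and 21 DPA with median-ratio scaling. *Sobic.003G017500* was 0.0027 between 11 and 16 DPA with median-ratio scaling and 0.0233 between 6 and 21 DPA under quantile normalization. With each library left out, the interaction of *Sobic.001G175000* between 6 and 11 DPA ran from -0.062 to 0.34. That of *Sobic.001G501800* ran from -0.11 to 0.017 between 6 and 21 DPA and from -0.044 to 0.085 between 16 and 21 DPA. That of *Sobic.008G013000* ran from -0.018 to 0.33 between 6 and 21 DPA and from -0.14 to 0.21 between 16 and 21 DPA, and its wxe step between 16 and 21 DPA from -0.0092 to 0.34. That of *Sobic.003G017500* ran from -0.23 to 0.085 between 6 and 21 DPA, -0.085 to 0.064 between 11 and 16 DPA and -0.026 to 0.29 between 16 and 21 DPA.

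The labels give replicate numbers but no shared batch, and deviations of same-numbered wxe and WT libraries correlated at -0.28, 0.21, -0.01 and 0.11 at 6, 11, 16 and 21 DPA over genes. The replicate block changed no call of the 4 genes, with 3, 4, 3 and 4 of them called at 6, 11, 16 and 21 DPA. Counts over all genes moved by more than 1.5 times at 6 DPA (3320 to 2194 with the 5 FPKM filter and 1909 fitted alone), at 21 DPA (975 to 457 fitted alone), for the average (299 to 769 with a pseudocount of 0.1), for the interaction between 6 and 21 DPA (4585 to 2719 fitted alone) and for that between 16 and 21 DPA (20 to between 41 and 79 under 5 settings). With each library left out they ran from 2115 to 4853 at 6 DPA, 28 to 77 at 16 DPA (148 with all libraries), 587 to 824 at 21 DPA, 1185 to 2597 for the interaction between 11 and 16 DPA (2692), 2996 to 6167 for that between 6 and 21 DPA and 4 to 29 for that between 16 and 21 DPA. Quantile normalization moved the share of higher calls to 57.5%, from 73.7%, at 6 DPA, to 52.9%, from 40.3%, between 6 and 11 DPA in wxe, and to 51.5%, from 39.7%, between 11 and 16 DPA in WT. The median of all genes in the interaction between 6 and 11 DPA was then 0.14, from -0.0020. With 5 or 20 neighbours on each side, 0 of 27 and 1 of 84 tested neighbours were called for the average.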

Other observations

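Beside *Sobic.008G013000* and *Sobic.003G017500*, 2 further genes were called lower in wxe at all 4 ages, 4 of 13487 genes in all (0.0297%), and they are named after their values were seen. The first 2 were chosen for a lower level in wxe at every age, so nothing is read from this share. The set also rests on borderline calls. That of *Sobic.003G017500* at 16 DPA was lost with that age fitted alone (adjusted p = 0.0601 from limma). *Sobic.010G262300*, which also followed the course of *Sobic.008G013000* over the libraries, averaged 2.25 FPKM in wxe and 5.44 FPKM in WT at 6 DPA, and 7.09 FPKM in wxe and 22.3 FPKM in WT at 21 DPA. *Sobic.004G157300* averaged 17.3 FPKM in wxe and 27.3 FPKM in WT at 6 DPA, and 16.5 FPKM in wxe and 51.9 FPKM in WT at 21 DPA. Its log2 fold change was -0.65, -1.24, -1.37 and -1.61 at 6, 11, 16 and 21 DPA. The deposited table pairs no description with either ID.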
